A study of Homo sapiens with 9 samples.

Results

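The genes described here are the messenger RNA splicing regulators DDX39B and its paralogue DDX39A, the SR proteins, the heterogeneous nuclear ribonucleoproteins (hnRNPs), the kinases that phosphorylate SR proteins, and their partners TRA2, RBM39 and the LUC7-like proteins. They were chosen by symbol among protein-coding genes, with a mean of at least 1 CPM, a gene's counts scaled to the size of its library, and 47 of the 62710 genes in the count table qualified: 12 SR proteins, 21 hnRNPs, 6 CLK and SRPK kinases, 6 TRA2, RBM39 and LUC7-like genes, and the 2 DDX39 helicases. A total of 53 genes matched the symbols. The set was selected with earlier results of these data in view: DDX39B had stood out in the comparison of concave with flat cultures. Its values against flat cultures are therefore given as a description, and no test of them is used as support. The RNA is that of H9 cells, an established embryonic stem cell line of human origin labelled as wild type. The cells grew for 72 h in mTeSR1 pluripotency medium on Matrigel-coated silicone (PDMS) plates, and then for 48 h in N2B27 medium with SB431542 and LDN, a pair of inhibitors that block the TGF-beta and BMP branches of SMAD signalling and turn the cells toward neuroepithelium. For a last 24 h the plate was held in a concave bend, in a convex bend or unbent (flat, the control), with the inhibitors present in all 3 groups. Each group had 3 libraries of poly-A RNA, with replicate numbers 1 to 3 in the labels. "Curved" below means both bent groups together, 6 libraries.

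Splicing joins the exons of a new transcript. SR proteins bind exons through RNA-recognition domains and use a tail rich in arginine and serine to recruit the splicing machinery, while hnRNPs coat nascent RNA and often hold exons back, so that the balance between them sets which exons are kept. CLK kinases in the nucleus and SRPK kinases mainly in the cytoplasm phosphorylate the arginine-serine tail and so control where SR proteins are and whether they act. DDX39B, also known as UAP56, is an RNA-dependent ATPase of the DEAD-box family that helps the U2 particle settle on the branch site and loads export factors onto spliced mRNA as part of the TREX complex. Many genes of these families control their own level by splicing their transcripts into forms that are retained in the nucleus or destroyed by nonsense-mediated decay.

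Transcripts of the kinds used in such self-control are annotated for most of the set, a feature that the choice by symbol did not use. At least 1 transcript marked for nonsense-mediated decay was annotated for 38 of the 47 members (80.9%), against 40.4% of the 15523 protein-coding genes tested, and at least 1 transcript with a retained intron for 36 members (76.6%), against 54.2%. RBM39 has the most transcripts marked for decay, 15 of 45, followed by HNRNPU with 9 of 31 and LUC7L3 with 8 of 23. Members also have more annotated transcripts, with a median of 12 against 7, and a gene with more transcripts has more chances to hold either kind. A count per gene adds all of these forms together, so no value below separates productive from unproductive mRNA.

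DDX39B and DDX39A encode nearly the same protein from distinct mRNAs, which sets how far reads of one can be taken for the other. Over 1283 aligned coding bases of the reference transcripts (GENCODE v29, GRCh38), 80.3% were identical, 253 differed, and the longest stretch without a difference was 26 bases. The window of 60 coding bases around the 4 codons of the DECD motif, the ATPase signature that gives this family branch its name, is shown because both genes encode this motif there, with 15 of the bases differing between them; capitals mark the differences. Both windows cross an exon junction on the minus strand, at chr6:31535481-31536554 for DDX39B and chr19:14410330-14411043 for DDX39A.
DDX39B: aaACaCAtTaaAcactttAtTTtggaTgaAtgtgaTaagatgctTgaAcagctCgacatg
DDX39A: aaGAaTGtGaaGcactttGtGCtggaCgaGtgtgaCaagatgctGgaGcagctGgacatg

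HNRNPA1 and the member HNRNPA1L3, which GENCODE v29 still names as the pseudogene HNRNPA1P48, are the opposite case, and their reads are far harder to separate. Their 828 aligned coding bases were 99.5% identical, with 4 differences and an identical stretch of 314 bases.

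The libraries held 49420082 to 64763412 counts. Flat 2 had the fewest counts and stood farthest from flat 3. Its chi-square per degree of freedom was 133.1 against flat 1 and 284.6 against flat 3, beside 87.24 between flat 1 and flat 3. Pairs of libraries within the bent groups gave 19.69 to 158.5, so only the pair of flat 2 with flat 3 lay outside that range. The labels do not state whether a group's libraries are separate cultures, and the p-values below therefore cover library-to-library spread that could be technical. The neuroepithelial marker SOX2 ranged from 470 to 822 CPM over the 9 libraries and OTX2 from 257 to 318. PAX6 stayed between 1.09 and 7.1 CPM. Among the pluripotency markers, NANOG stayed between 0 and 0.475 CPM and TDGF1 ranged from 1.11 to 193. The others were higher: POU5F1 206 to 512, L1TD1 131 to 586, DPPA4 229 to 518 and LIN28A 1350 to 1790 CPM. Summed over 9 neuroepithelial markers, the level was 1180 to 1780 CPM in concave, 1020 to 1850 in convex and 1250 to 1720 in flat libraries, and over 6 pluripotency markers 2130 to 3450, 2300 to 3420 and 2460 to 3320 CPM. The 4 endoderm markers summed to 0.102 to 6.15 CPM in concave, 0.0589 to 10.8 in convex and 0.0687 to 5.31 in flat libraries, with FOXA2 detected in all 9 and SOX17 at 0 in 8. In whole cultures fewer cells of a type and less RNA per cell cannot be told apart.

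DDX39B (ENSG00000198563, chromosome 6, 31530219 to 31542448, minus strand) was higher in every curved library than in every flat one. Its level was 223.2, 273.9 and 235.4 CPM in concave libraries 1, 2 and 3, 248.1, 236.9 and 261.3 CPM in convex libraries, and 166.4, 119.0 and 174.9 CPM in flat libraries. The lowest curved library thus lay above the highest flat one, and flat 2 was the lowest of all 9. The group means were 244.2 ± 26.4 CPM in concave, 248.7 ± 12.2 in convex and 153.4 ± 30.1 in flat cultures (SD, n = 3 each). The log2 fold change of curved against flat was 0.68 with a standard error of 0.155. Against the flat library of the same number, the log2 difference was 0.42 for concave and 0.58 for convex with number 1, 1.20 and 0.99 with number 2, and 0.43 and 0.58 with number 3. It was the largest difference among the 47 members in 5 of these 6 pairs. In the pair of concave 1 with flat 1, LUC7L3 was ahead with 0.43. DDX39B was chosen for its values against flat, so nothing can be read from this rank. Over all genes tested, between 11.9% and 18.9% had a larger difference than DDX39B in any one pair. Without the libraries numbered 2, the log2 fold change was 0.43 for concave against flat, beside 0.67 with all libraries, and 0.50 for curved against flat; the test across all genes did not call DDX39B in any setting tried.

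DDX39A (ENSG00000123136, chromosome 19, 14408819 to 14419383, minus strand), the paralogue, did not share this pattern. It had 63.21, 77.58 and 117.8 CPM in concave libraries, 69.48, 87.49 and 108.8 CPM in convex libraries, and 72.42, 130.0 and 110.7 CPM in flat libraries. The groups overlapped, with number 1 lowest in each of them and flat 2 highest of all. The log2 fold change of curved against flat was -0.26 ± 0.242 (SE; edgeR adjusted p = 0.667), and -0.07 without flat 2. The ratio of DDX39B to DDX39A counts was 3.53, 3.53 and 2.00 in concave libraries, 3.57, 2.71 and 2.40 in convex libraries, and 2.30, 0.915 and 1.58 in flat libraries. Within each number the ratio was above that of the flat library in both curved libraries. The DDX39B count may leave out most of its spliced mRNA, as described below. This is therefore a ratio of counts, not of the 2 mRNAs, and it includes the values for which DDX39B was chosen.

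**Figure D1:**
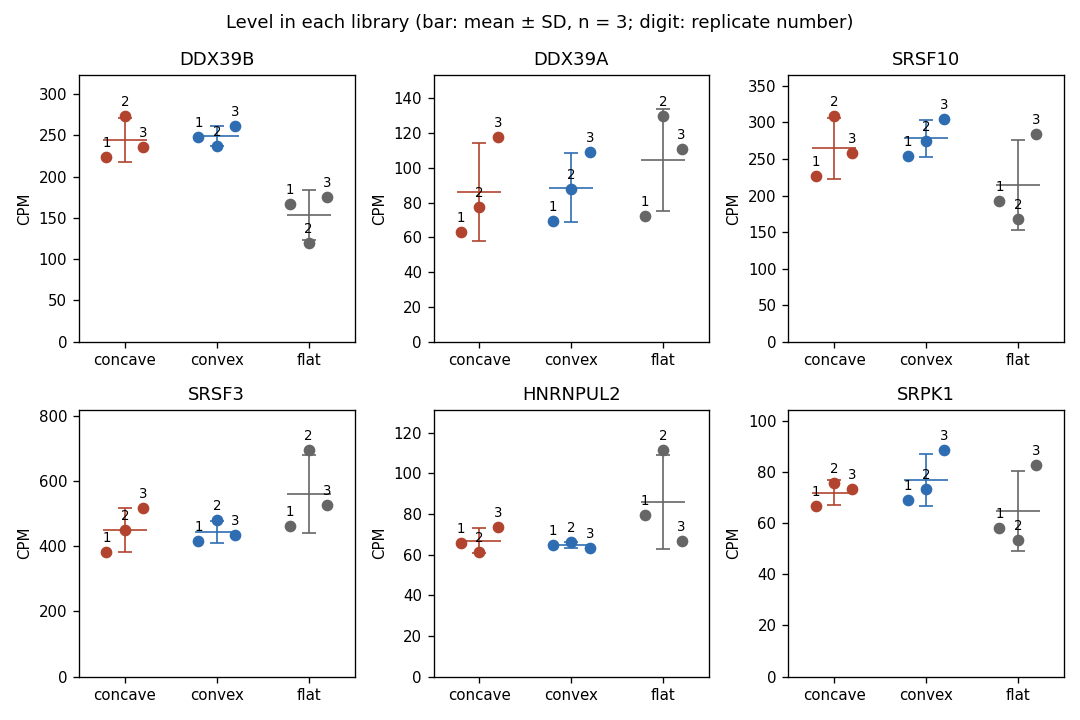
Level of 6 member genes in CPM (vertical axes, each from 0), by plate shape; dots are the 3 libraries of a group with their replicate number, and bars are the mean ± SD. DDX39B is the member whose curved libraries all lie above its flat ones (lowest 223.2, highest flat 174.9 CPM), while for SRSF3 and HNRNPUL2 flat 2 lies far above the other libraries.

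What the DDX39B count measures is limited by a second gene on the same strand. The read-through gene ATP6V1G2-DDX39B, which runs on from the neighbouring proton pump gene ATP6V1G2, is annotated over 97.5% of the 2133 bases of the spliced DDX39B mRNA, and the deposited counts gave it 0 reads in all 9 libraries. Of the 7007 bases in any annotated DDX39B exon, 4928 are not shared with it, and 98.9% of those lie in introns of the spliced mRNA, where 5 of the 21 DDX39B transcripts are annotated to retain an intron. Whether reads in shared exons were counted was looked at in ribosomal protein genes. RPS10, RPL17 and RPL36A have at least 50% of their exons shared with another gene on their strand. They averaged 4.68, 7.09 and 17 CPM, against 161 to 1865 CPM (median 625.7) for the 62 with under 5% shared. These 3 are examples, as not every gene with at least 50% shared is reported here. If reads in shared exons of DDX39B were left uncounted in the same way, its values rest on 54 bases of the spliced mRNA and on 4874 bases that its splicing removes. The antisense gene DDX39B-AS1 had 2 to 20 counts per library. How such reads were handled is not given, so these counts cannot tell whether the spliced mRNA differed between curved and flat cultures.

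**Figure D2:**
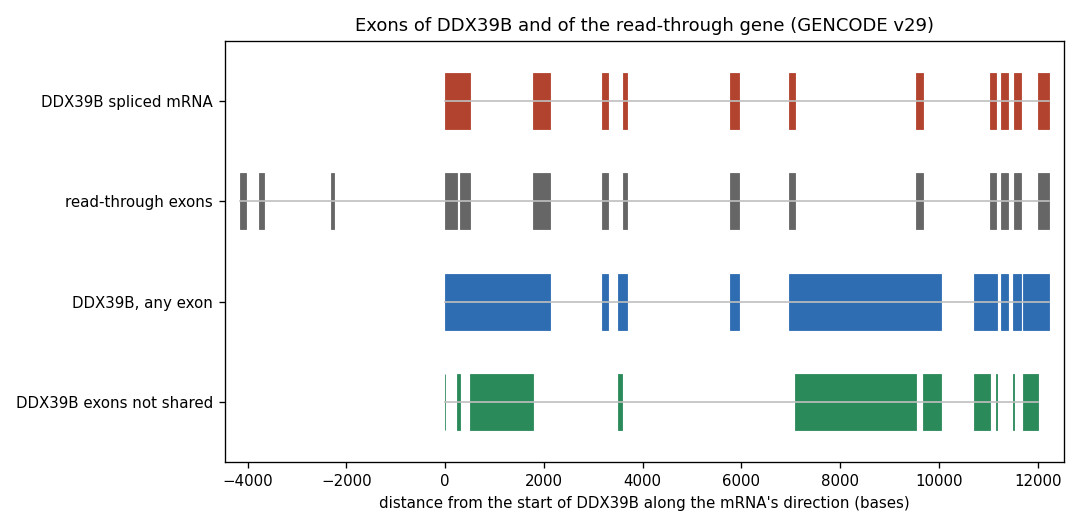
Exons of the spliced DDX39B mRNA, of the read-through gene, of all DDX39B transcripts together and of DDX39B bases not shared with the read-through, from top to bottom, against distance in bases from the DDX39B start along the direction of transcription. Nearly all unshared bases (bottom row, 4928 in all) lie between the exons of the spliced mRNA (top row).

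Same-strand sharing touched 5 other members to a degree over 10%. It covered 88.5% of the exons of SRSF1 (with ENSG00000266086), 52.1% of LUC7L2 (with FMC1-LUC7L2), 45.7% of HNRNPUL2 (with HNRNPUL2-BSCL2), 22.7% of HNRNPL and 16.3% of HNRNPH2. ENSG00000266086, FMC1-LUC7L2 and HNRNPUL2-BSCL2 had 0 counts in every library. For these members, too, the count may rest on the exons that are not shared.

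The rest of the set differed little between curved and flat cultures. The median log2 fold change of curved against flat was -0.001 over the 47 members, 23 above 0 and 24 below, beside 0.009 over all 23075 genes tested, and 37 members lay within 0.2 of 0. No member was called by edgeR's quasi-likelihood test at an adjusted p under 0.05 in curved against flat, concave against flat, convex against flat or concave against convex, where 0% of all genes were called as well; DESeq2 and limma voom also called 0 members in each of the 4. DESeq2 called 2 genes in all in curved against flat, neither of them a member. At an unadjusted p under 0.05, 10.8% of all genes passed in curved against flat, as did 1 of the 46 members other than DDX39B, HNRNPUL2. The 6 curved libraries lay above the 3 flat ones for 1 member, DDX39B, which is 2.13% beside 2.41% of all genes, and below them for 0 members, beside 1.75% of all genes. Both curved libraries exceeded the flat library in every number for 4 members (8.51%), DDX39B, SRSF12, CLK2 and HNRNPH1, beside 7.58% of all genes, and both were below it in every number for 4 members, SRSF3, SRSF7, HNRNPH2 and HNRNPH3, beside 8.76%. These shares lay near or below those of all genes, and the choice of DDX39B for its values against flat means that nothing can be read from its place in them.

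**Figure D3:**
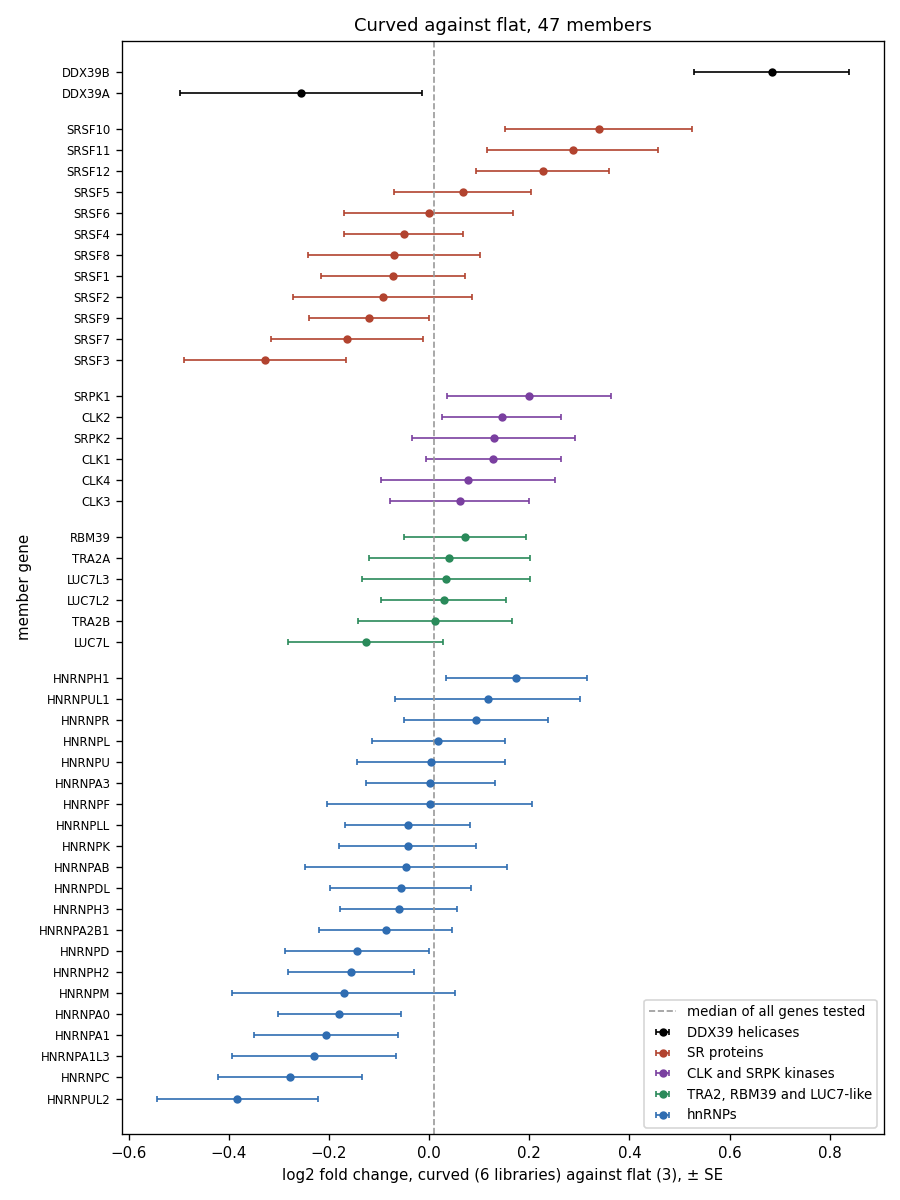
Log2 fold change of curved (6 libraries) against flat (3 libraries) for each of the 47 members, with its standard error, by family; the dashed line is the median of all genes tested, 0.009. DDX39B is farthest to the right at 0.68, HNRNPUL2 farthest to the left at -0.38, and the 6 kinases all lie right of the line.

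Among the 12 SR proteins, 4 were higher and 8 lower in curved cultures, with a median log2 fold change of -0.061. Of their 72 pairs, which share flat libraries, 30 were higher in the curved library, beside 48.6% to 51.3% of all genes in a single pair. The highest was SRSF10 (ENSG00000188529, chromosome 1, 23964804 to 23980927, minus strand), a factor that represses splicing when it loses its phosphates. It had 226.6, 309.5 and 258.9 CPM in concave libraries, 254.2, 275.2 and 304.9 CPM in convex libraries, and 191.9, 167.5 and 284.6 CPM in flat libraries, a log2 fold change of 0.34 ± 0.187 (SE; edgeR adjusted p = 0.486). Flat 3 lay inside the range of the curved libraries, and without flat 2 the fold change was 0.19. SRSF11 (chromosome 1, 70205682 to 70253052), an SR-related protein also called p54, had 352.4, 448.7 and 351.0 CPM in concave libraries, 371.2, 398.7 and 439.1 CPM in convex libraries, and 264.1, 292.9 and 410.3 CPM in flat libraries. Its order within numbers 1 and 2 was the same as that of SRSF10, curved above flat, and in number 3 concave lay below flat and convex above it, for both genes. SRSF12, an SR-like protein known to oppose other SR proteins, was low at 20.47 to 23.28 CPM in curved libraries and 17.67 to 20.59 CPM in flat ones, ranges that meet only between concave 1 and flat 2.

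SRSF3 (ENSG00000112081, chromosome 6, 36594353 to 36605600, plus strand), the shortest SR protein and an adaptor for mRNA export, was the lowest of its family against flat. It had 382.8, 449.9 and 517.8 CPM in concave libraries, 414.9, 479.1 and 432.5 CPM in convex libraries, and 461.7, 693.4 and 525.0 CPM in flat libraries. Curved libraries were below the flat one in each number, yet the groups overlapped, with flat 1 below concave 3 and convex 2, and the log2 fold change of -0.33 ± 0.162 (SE; edgeR adjusted p = 0.466) was -0.15 without flat 2. SRSF7, another export adaptor, averaged 272.3 ± 27.1 CPM in curved (SD, n = 6) and 305.2 ± 53.2 CPM in flat cultures (SD, n = 3), and SRSF9 119.5 ± 6.98 and 129.8 ± 12.2 CPM. SRSF2, SRSF6 and SRSF8 had log2 fold changes between -0.09 and 0, and SRSF1, SRSF4 and SRSF5 between -0.07 and 0.07. Part of the SRSF9 and SRSF2 exons lies opposite exons of GATC and MFSD11, and the strand setting of the counting is not given in the sources used here.

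All 6 kinases had a positive log2 fold change of curved against flat, with a median of 0.128 and a range of 0.06 to 0.20, and none passed the test (smallest edgeR adjusted p = 0.613). SRPK1 (ENSG00000096063, chromosome 6, 35832966 to 35921342, minus strand), the main cytoplasmic kinase of SR proteins, had 66.55, 75.68 and 73.39 CPM in concave libraries, 68.94, 73.13 and 88.41 CPM in convex libraries, and 58.14, 53.39 and 82.51 CPM in flat libraries. Its number 3 libraries were high in the convex and the flat group, and the fold change of 0.20 was 0.08 without flat 2. CLK2, a nuclear kinase, had 107.8, 125.4 and 125.4 CPM in concave libraries, 114.7, 123.8 and 110.9 CPM in convex libraries, and 99.82, 114.0 and 106.3 CPM in flat libraries. It was the 1 kinase above flat in all 6 pairs, by 0.06 to 0.24 on the log2 scale. CLK1 was above flat in numbers 1 and 2 and at -0.29 and 0.02 in number 3, and SRPK2 and CLK4 lay below 0, at -0.04 and -0.03, when flat 2 was left out. Over the 6 kinases, 27 of the 36 pairs were higher in the curved library, beside 48.6% to 51.3% of all genes in a single pair. Pairs of 1 number share a flat library, so these pairs are not separate observations.

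The hnRNPs leaned the other way, with 7 higher and 14 lower in curved cultures and a median log2 fold change of -0.057. Of their 126 pairs, which also share flat libraries, 41 were higher and 84 lower in the curved library. Beside them, 48.6% to 51.3% of all genes were higher in a single pair. HNRNPUL2 (ENSG00000214753, chromosome 11, 62712630 to 62727472, minus strand), a relative of the nuclear scaffold protein HNRNPU, was lowest. It had 65.59, 61.45 and 73.47 CPM in concave libraries, 64.91, 66.14 and 63.32 CPM in convex libraries, and 79.51, 111.3 and 66.62 CPM in flat libraries. Flat 2 alone was far from the rest, and the fold change of -0.38 ± 0.161 (SE; edgeR adjusted p = 0.459) was -0.15 without it. HNRNPC (ENSG00000092199, chromosome 14, 21209136 to 21269494, minus strand), which binds uridine tracts and keeps cryptic exons out of mRNA, had 984.9, 1087 and 1283 CPM in concave libraries, 973.0, 1098 and 1093 CPM in convex libraries, and 1179, 1505 and 1266 CPM in flat libraries. Only concave 3 reached the flat range, and the log2 fold change was -0.28 ± 0.144 (SE; edgeR adjusted p = 0.477), or -0.17 without flat 2. HNRNPA1, which represses many exons, had 2035, 2115 and 2162 CPM in concave libraries, 2157, 2198 and 1992 CPM in convex libraries, and 2283, 2916 and 2103 CPM in flat libraries, again with flat 2 highest.

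HNRNPA1L3 followed HNRNPA1 at 3.70% to 4.51% of its CPM in curved libraries and 3.66% to 4.30% in flat ones, so with their near-identical coding bases its level of 74.02 to 125.5 CPM is uncertain. HNRNPH1, which binds runs of G, was the highest hnRNP against flat, with 489.2, 608.5 and 628.3 CPM in concave libraries, 511.3, 565.5 and 616.9 CPM in convex libraries, and 466.0, 491.4 and 557.6 CPM in flat libraries. All 6 of its pairs were higher in the curved library, by 0.07 to 0.31 on the log2 scale, and the groups overlapped. HNRNPUL1 had 223.7 CPM in flat 2 and between 334.8 and 396.6 CPM in the other 8 libraries, and its log2 fold change was 0.12 with flat 2 and -0.11 without it. HNRNPA0, whose gene has no intron, averaged 480.8 ± 33.9 CPM in curved (SD, n = 6) and 544.3 ± 25.9 CPM in flat cultures (SD, n = 3).

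The 6 TRA2, RBM39 and LUC7-like genes lay between -0.13 and 0.07 on the log2 scale, with 5 above 0. RBM39, a partner of the branch-site factor U2AF, varied little across curved libraries, at 286.0 to 311.1 CPM, and had 265.3, 269.2 and 322.8 CPM in flat libraries. LUC7L3, one of the proteins that bind the U1 particle, had 520.1, 469.9 and 323.7 CPM in concave libraries, 428.8, 398.6 and 347.5 CPM in convex libraries, and 386.6, 448.1 and 378.7 CPM in flat libraries. LUC7L, its relative, had 170.5 CPM in flat 2 and 109.7 to 129.1 CPM in the other 8 libraries, and its log2 fold change was -0.13 with flat 2 and 0.09 without it. TRA2A and TRA2B, SR-like activators of exon inclusion, averaged 86.01 ± 12.1 and 353.6 ± 40.1 CPM in curved (SD, n = 6), against 83.66 ± 12.4 and 350.6 ± 53.8 CPM in flat cultures (SD, n = 3).

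**Figure D4:**
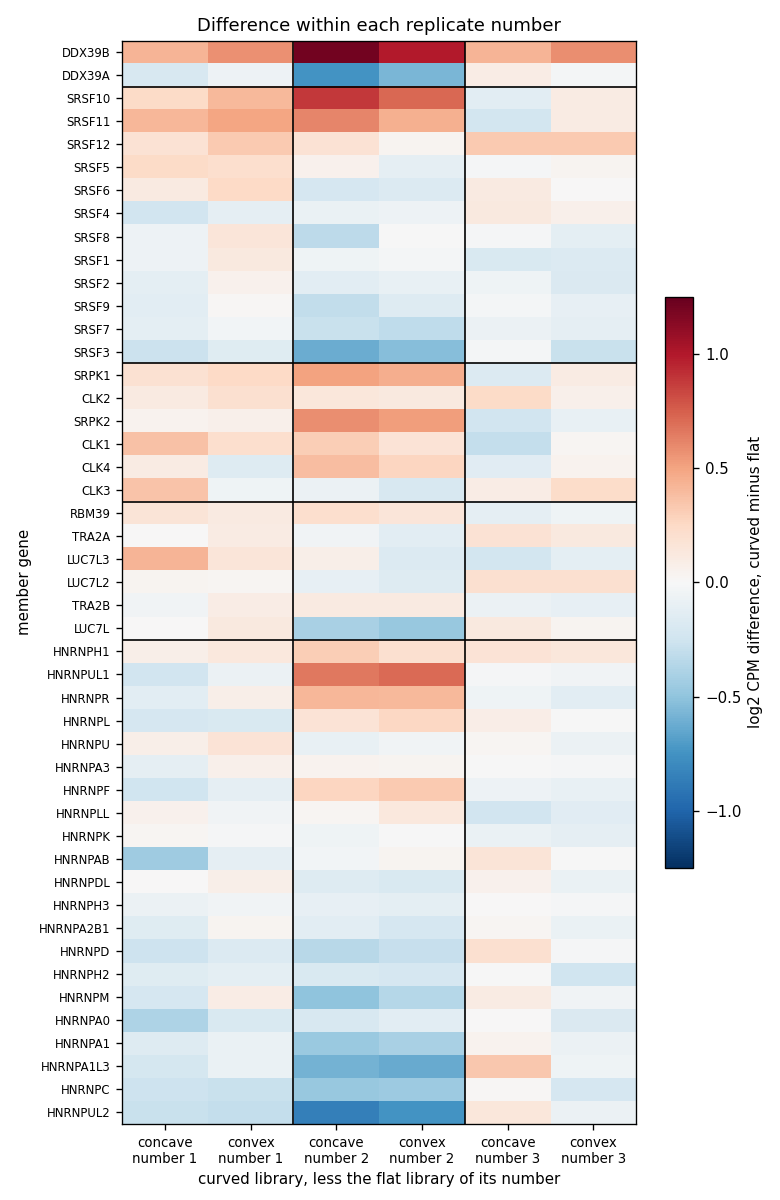
Log2 CPM of each curved library less that of the flat library with the same replicate number (colour, red higher in the curved library), for the 47 members by family and the 6 pairs, which share 1 flat library per number. DDX39B is red in all 6 columns, from 0.42 to 1.20, and the number 2 columns hold the strongest colours in both directions.

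The libraries numbered 2 held most of the distance between curved and flat. Averaged over both shapes, the difference from the flat library was more than 0.3 from 0 on the log2 scale for 17 members in number 2, 3 members in number 1 and 2 members in number 3. The median absolute difference was 0.2 in number 2, 0.136 in number 1 and 0.087 in number 3. In 31 of the 47 members number 2 had the largest of the 3 absolute differences. These counts were taken for the members only. The shares over all genes were not computed, so the counts are not read as a trait of the members. The 2 members past 0.3 in number 3 were DDX39B at 0.50 and SRSF12 at 0.32. The pairs of 1 number share their flat library, so a deviation of flat 2 enters both.

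Concave and convex cultures differed least. The log2 fold changes of concave against convex lay between -0.14 and 0.16 over the 47 members, with a median absolute value of 0.031 beside 0.123 over all genes tested, which include many of lower count. The smallest adjusted p was 1. DDX39B stood at -0.03 with a standard error of 0.174, and LUC7L3 was the farthest up, with its concave libraries spread from 323.7 to 520.1 CPM. The median standard error of 0.168 leaves differences of that order undetectable here.

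The replicate numbers were not used to choose the genes, so differences between them could be tested. An F test over the 3 numbers, with plate shape as a term, called 11.8% of all genes and 0 of the 47 members (edgeR adjusted p under 0.05; 9 members, 19.1%, at an unadjusted p under 0.05, beside 28.4% of all genes). DDX39A came closest at an adjusted p of 0.051, followed by HNRNPM at 0.063 and HNRNPF at 0.0639; DESeq2 called 5 members and 4465 genes in all, and limma voom 2 members and 2922 genes. Number 3 set against numbers 1 and 2 called 17.9% of all genes and 2 members (4.26%), HNRNPF and HNRNPAB. Number 3 was set apart after its libraries were seen to differ, and the p-values do not allow for that choice.

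HNRNPF, which like HNRNPH1 binds runs of G, had 429.9 CPM in concave 3, 423.1 in convex 3 and 450.6 in flat 3, against 273.5 to 343.6 CPM in the 6 libraries numbered 1 and 2. The mean was 434.5 ± 14.3 CPM in number 3 (SD, n = 3) and 307.5 ± 29.7 CPM in numbers 1 and 2 (SD, n = 6), a log2 fold change of 0.50 ± 0.124 (SE; edgeR adjusted p = 0.0244). HNRNPAB, an RNA-binding protein of the A and B type, had 269.0, 240.2 and 241.2 CPM in concave 3, convex 3 and flat 3, against 141.9 to 194.7 CPM in the libraries numbered 1 and 2, a log2 fold change of 0.48 ± 0.126 (SE; edgeR adjusted p = 0.0321). For both genes every library numbered 3 lay above every other library, whatever the plate shape. The same held for HNRNPA3, SRSF1 and TRA2B, which were not called. The share of all genes with this pattern was not computed, so nothing is read from it. DDX39A was 0.47 ± 0.143 higher in number 3 on the log2 scale (SE; edgeR adjusted p = 0.0502), with flat 2 at 130.0 CPM above all 3 libraries numbered 3. DDX39B averaged 223.8 CPM in number 3, 209.9 in number 2 and 212.6 in number 1.

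Levels were compared between genes per kilobase of transcript, as CPM divided by the median length of a gene's principal transcripts. HNRNPA2B1 led with 817 CPM per kb, averaged over the 9 libraries, followed by HNRNPC with 679, HNRNPA1 with 538 and HNRNPK with 346. SRSF5 was the highest SR protein with 275 CPM per kb, and SRSF10 had 155. DDX39A had 63.3 CPM per kb. For DDX39B, SRSF1, LUC7L2 and HNRNPUL2, whose exons are shared with other genes, a count divided by transcript length is not a level that can be set beside the others, and none is given. The kinases were all in the lower part of this order, from 59.1 CPM per kb for CLK2 to 3.19 for CLK4, the lowest of those compared. SRSF8, a relative of SRSF2, and SRSF12 were the lowest SR proteins, at 4.10 and 5.81 CPM per kb. The 47 members summed to 16268, 18670 and 19395 CPM in concave libraries, 17276, 18603 and 18341 in convex libraries, and 17182, 20402 and 19155 in flat libraries, of which the hnRNPs made up the largest part, 11758 to 14466 CPM in curved and 12984 to 15336 CPM in flat libraries.

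No matched gene lay close to the level threshold. The member with the lowest mean was CLK4 at 8.185 CPM, and the highest gene below 1 CPM was HNRNPCL2 at 0.157. HNRNPCL1, HNRNPCL2 and HNRNPCL3, intronless relatives of HNRNPC, had 17, 79 and 3 counts over all 9 libraries, and HNRNPCL4 had 0. HNRNPUL2-BSCL2 and HNRNPA1L2 also had 0 counts, which over the 9 libraries allows up to 0.00564 CPM by counting error alone. The HNRNPA1L2 coding sequence is 98.5% identical to that of HNRNPA1 over 963 aligned bases. All 47 members passed the filter on low counts, each with counts in every group.

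Transcript length moved with the comparison over all genes. Across the 21940 genes tested that had a length, the Pearson correlation of log2 length with the log2 fold change of curved against flat was 0.14, and the class median ran from -0.242 at a median length of 1229 bases to 0.32 at 10262 bases. Across the 47 members, which range from 1201 to 8726 bases, it was -0.03; these correlations are across genes, which share the 9 libraries and are not independent. DDX39B, at 2068 bases, belongs to a length class with a median of -0.071 and quartiles of -0.252 and 0.14, and its value of 0.68 lies above the upper one. SRSF10, at 1631 bases, belongs to a class with a median of -0.167 and quartiles of -0.376 and 0.12. The long members HNRNPUL2 and HNRNPA0, at 5229 and 8726 bases, lie below the lower quartiles of their classes, at -0.38 and -0.18. After a correction for length within each library the log2 fold change was 0.76 for DDX39B, 0.45 for SRSF10 and -0.60 for HNRNPUL2. It was -0.49 for HNRNPA0 and -0.09 for DDX39A. For DDX39B and HNRNPUL2, whose exons are shared with other genes, the counted bases may differ from the transcript. Their length classes and corrected values are therefore uncertain. In single libraries, the deviation of all genes from their mean correlated with length most strongly in flat 2 (r = -0.20) and flat 3 (r = 0.16), while r lay between -0.06 and 0.09 in the other 7.

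**Figure D5:**
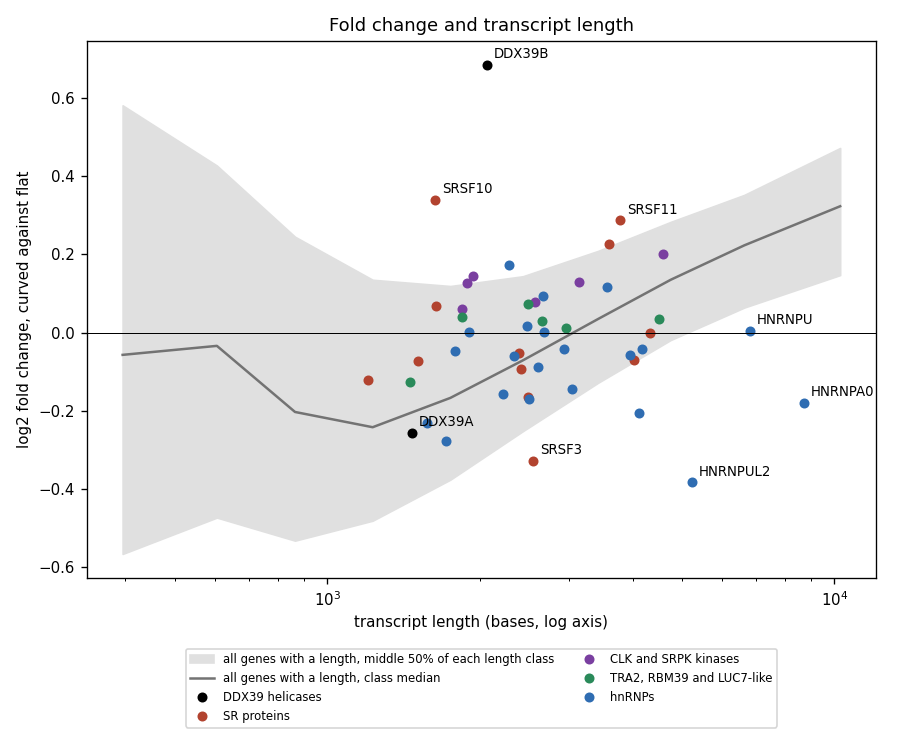
Log2 fold change of curved against flat against transcript length in bases (log axis); dots are the 47 members by family, the line is the median and the band the quartiles of all genes in each of 10 length classes. The line climbs with length from about 1229 bases on. DDX39B at 0.68 lies above the band, and HNRNPUL2 at -0.38 and HNRNPA0 at -0.18 lie below it. For DDX39B and HNRNPUL2 the counted bases may differ from the transcript plotted.

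Other genes of splicing and mRNA export, in 9 lists chosen with earlier results known, are given by count and median for curved against flat; 128 of 131 listed genes were tested and edgeR called 0 of them in any list. At an unadjusted p under 0.05, 16 of the 128 passed, a share near the 10.8% of all genes. The Sm proteins, which form a ring at the core of most splicing particles, had 7 of 8 members lower and a median log2 fold change of -0.52, beside 0.009 over all genes tested. SNRPB averaged 211.1 CPM in curved and 316.5 CPM in flat cultures and SNRPD2 159.4 and 274.4 CPM, and the median was -0.19 without flat 2. The U1 proteins SNRPA, SNRPC and SNRNP70, which LUC7-like proteins work with, were all lower, with a median of -0.42, or -0.18 without flat 2. The SR-related proteins had 17 of 20 members higher and a median of 0.27, or 0.18 without flat 2. SRRM2, a large scaffold of the active spliceosome, ranged from 1537 to 2006 CPM in curved and 676.6 to 1591 CPM in flat libraries. Lists of U2 and branch-site proteins (median 0.028), of TREX and export factors that act with DDX39B (0.030), and of the exon junction complex and nonsense-mediated decay (0.13) lay closer to 0, and the tri-snRNP list had 7 of 11 lower with a median of -0.24, or -0.08 without flat 2. The other kinases and phosphatases of splicing factors had a median of 0.16, with 8 of 11 higher, or 0.11 without flat 2. Tissue-regulated splicing factors had 21 of 30 higher and a median of 0.13, or 0.017 without flat 2. After the correction for length the medians were -0.39 for Sm proteins, -0.25 for U1 proteins and 0.16 for SR-related proteins.

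In TREX, THOC7, a subunit of its THO core, averaged 34.05 CPM in curved and 48.95 CPM in flat cultures, and NCBP3, a cap-binding protein tied to export, 123.8 and 94.64 CPM. None of the TREX genes passed the test (edgeR adjusted p = 0.459 for both of these). Of the 30 tested genes in the list of tissue-regulated splicing factors, 10 (33.3%) were called over the replicate numbers, beside 11.8% of all genes. ESRP1, an epithelial splicing factor, averaged 155 CPM in number 3 against 74.9 in number 1 and 55.5 in number 2 (edgeR adjusted p = 0.00212), and NOVA2, a neuronal one, 17.2 CPM against 38.6 and 34.4 (edgeR adjusted p = 0.0071). The smallest adjusted p in the list were those of RBM24 and ESRP2. RBM24 averaged 4.98 CPM in number 3 against 22 in number 1 and 17.2 in number 2 (edgeR adjusted p = 0.000983). ESRP2 averaged 44.6 CPM against 10.9 and 8.81 (edgeR adjusted p = 0.00142). Among the members, no such difference between numbers passed the F test.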

How the data were processed

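Polyadenylated RNA of H9 cells was sequenced in 9 strand-specific TruSeq libraries, 3 per plate shape, per the labels' protocols. The authors deposited whole-number counts for each gene. Reads had been aligned with HISAT2 and counted by featureCounts against GRCh38, per the submitters' processing notes. Tool versions, annotation release, strand setting and how reads in shared exons were handled: not given in the sources used here. Each library held 49420082 to 64763412 counts, and no column was left out (0 others). Of 62710 genes, 62639 matched the table of gene names; positions, lengths and exon overlaps are those of GENCODE v29.

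The test was edgeR 4.0.16 in R 4.3.3: filterByExpr (23075 genes kept), TMM scaling, and a robust quasi-likelihood model with 1 coefficient per group over all 9 libraries. P-values were two-sided and adjusted by Benjamini-Hochberg over all genes, separately for each comparison, with an adjusted p under 0.05 called. DESeq2 1.42.0 and limma 3.58.1 voom were alternatives. The scripts were tested on simulated data. CPM values use TMM-scaled library sizes, and intervals and floors (3 counts) cover counting error only. Log2 differences within a number use a prior count of 2. The length correction subtracted a lowess curve (span 0.3) of log2 deviation on log2 length in each library.

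Members and gene lists were chosen with earlier results of these data known. Beyond DDX39A and DDX39B, the rule for named members took, per family, those called, the highest and lowest, and up to 3 with the smallest p in each direction of curved against flat and over the replicate numbers; lists gave up to 2 genes each. HNRNPA1L3, HNRNPA3, HNRNPU, HNRNPA2B1, HNRNPK, HNRNPH2, HNRNPH3, HNRNPL, CLK3, SRSF1, SRSF4 and SRSF5 were named after their values were seen. So were ESRP1, ESRP2, NOVA2 and RBM24 in the list of tissue-regulated splicing factors.

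Replicate numbers come from the labels. Deviations from group means correlated between same-numbered libraries (Pearson r for numbers 1, 2 and 3) at 0.423, 0.258 and 0.528 for the mean of both curved groups and flat, 0.372, 0.397 and 0.62 for convex and flat, and 0.579, 0.29 and 0.612 for concave and convex, all above the minimum of 0.1, and at 0.379, 0.0211 and 0.338 for concave and flat, where number 2 was not. Not every gene and sequence examined is reported here.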

Additional observations from a re-analysis of the deposited data

How the results depend on the processing

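Results were recomputed under 3 other scalings, 2 other filters, DESeq2, limma voom, a length correction, a replicate block, each library left out in turn and, added after seeing the data, numbers 1 and 3 only. The count of genes called stayed at 0 in every comparison of shapes except with DESeq2, which called 1 in convex against flat and 2 in curved against flat. Over the replicate numbers 2714 genes were called; the contrast of number 3 with 1 and 2 called 4137, no filter beyond 1 count 4087, DESeq2 4465 and the length correction 4072, and leaving out 1 library gave 352 (without convex 3) to 4999 (without flat 2). Members called over the numbers were 0, against 6 under the length correction and 6 without flat 2.

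With the replicate block, 0 genes were called in curved, concave or convex against flat (smallest edgeR adjusted p = 0.239, 0.506 and 0.264), and DDX39B had a log2 fold change of 0.69 in curved against flat. Over all settings that fold change ran from 0.50 (numbers 1 and 3 only) to 0.78. For concave against flat it was 0.43 with numbers 1 and 3 only, the 1 of 60 DDX39B values that moved by more than the spread between replicates. The 80 recomputed medians over the members did not, nor did any of the 2580 other values of named members cross the threshold. Of 180 medians over lists, 6 moved by more than that spread. With each library left out in turn, curved against flat ran from 0.188 to 0.581 for SRSF10 and 0.078 to 0.399 for SRPK1. It ran from -0.448 to -0.145 for SRSF3, -0.461 to -0.069 for DDX39A and -0.553 to -0.151 for HNRNPUL2. Leaving out flat 2 gave the value nearest 0 for each of these members, and leaving out another library moved each further from 0. Among named members the sign turned without flat 2 for CLK4, SRPK2, HNRNPF, HNRNPM, HNRNPUL1, LUC7L, SRSF6 and SRSF8, all within 0.18 of 0 with all libraries. The cause of these shifts was not tested. With 3 libraries a group, a median standard error of 0.144 for a member in curved against flat limits what can be seen.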
